A study of Homo sapiens with 9 samples.

Results

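H295R is an established cell line from a human adrenocortical carcinoma, used as a model because it carries out much of adrenal steroid synthesis in culture. The values below describe its transcriptome under vehicle: the 3 arrays of cells given DMSO for 3 h, out of 9 arrays in the series. The other 6 arrays, of cells given 100 nM of either angiotensin II or CP-529414, enter no value here, and nothing below compares treatments. The line comes from a single tumour, and the labels name no transgene or edited allele. The labels do not say whether the 3 arrays came from separate cultures, so their spread may be technical. RNA was hybridised to expression arrays, and the deposited values are log2 signals per probe set, a group of short probes that detect 1 transcript region. Each of 19775 genes was represented by its brightest probe set with a single gene symbol, taken by the mean over the 3 arrays. Levels are means ± SD (n = 3), and the number of arrays limits their precision.

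The adrenal cortex makes aldosterone in its outer zone (glomerulosa), cortisol in the middle zone (fasciculata) and androgen precursors in the inner zone (reticularis). Cholesterol is taken up or synthesised, carried into mitochondria and cut to pregnenolone, which the enzymes of each zone then convert. Angiotensin II and potassium act on the outer zone through membrane voltage and calcium, and the pituitary hormone ACTH acts through cyclic AMP.

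A floor was set on each array to tell which genes gave a signal beyond that of genes of unrelated tissues. It was the 95th percentile of 54 genes typical of other organs (milk, lens, muscle, sperm and the like), and lay at 6.93, 6.91 and 7.10 on the 3 arrays. A gene is called above the floor when it exceeded it on all 3 arrays, at the floor when on none, and between otherwise. Above it lay 9049 genes, which is 45.8% of all, with 552 between and 10174 at the floor. The share above was 53.1% of the 16521 protein-coding genes and 6.92% of 2658 long noncoding RNAs. Counts within the lists below are to be read beside these shares. The median gene read 6.72, the brightest 10% of genes began at 10.3, and levels ran from 2.74 to 14.5. Because brightness depends on each probe's affinity as well as on RNA, a rank is the rank of a probe set's signal and not of a transcript's amount, and a gene at the floor is not shown to be absent. RPLP2, a ribosomal stalk protein needed by every cell, read 4.74 ± 0.05, well under the floor on all arrays. CREB1, a cyclic AMP responsive transcription factor of wide expression, was at the floor with all 7 of its single-symbol probe sets, between 2.89 and 5.10. By its definition a few of the genes that set the floor must exceed it, so their number is no check of it. Those above it on all 3 arrays were KRT10 (11.2), SFTPC (7.66) and TNNI3 (7.03).

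**Figure D1:**
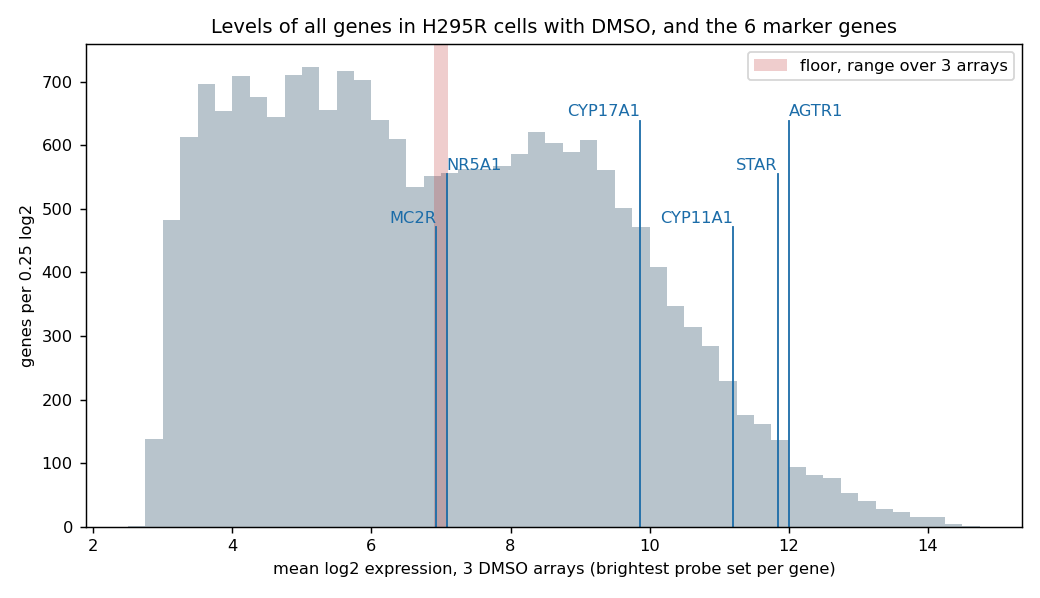
Distribution of mean log2 level over the 3 DMSO arrays for 19775 genes, by number of genes per bin, with lines at the floor and at the 6 adrenocortical marker genes. AGTR1, STAR and CYP11A1 lie in the right tail, CYP17A1 further in, and NR5A1 and MC2R next to the floor.

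The brightest probe sets belonged to the translation machinery and to the mitochondrial genome. RPL41, a ribosomal protein gene, was first at 14.52, 14.52 and 14.53 on the 3 arrays. COX2 (14.49 ± 0.02), ND4 (14.43 ± 0.03), ATP6 (14.38) and ND2 (14.15), all encoded by mitochondrial DNA, held 4 of the first 30 places. Ribosomal proteins held 14 of the first 30 places and 36 of the first 100, and 54 of the 58 ribosomal protein genes measured were above the floor. Beside RPL41 and RPLP1 (14.39), these were RPS16 (14.18), RPL32, RPL39, RPS18, RPS19, RPL37A, RPL37, RPS27, RPS15, RPL23A, RPS24 and RPS29. All 7 genes of mitochondrial DNA with a value were above the floor. Of 102 nuclear genes of the respiratory chain and ATP synthase, 85 were above it, though none reached the first 30. Among the other genes of the first 30 were PPIA (14.45), a peptidyl-prolyl isomerase, the tubulins TUBA1B (14.24) and TUBA1C, and the elongation factor EEF1A1 (14.13). GAPDH and LDHB of glucose metabolism, ACTB (14.07) of the cytoskeleton, the mitochondrial chaperone HSPD1, the ubiquitin gene UBB and the chromatin protein HMGN2 (13.86) completed the housekeeping part of the list. The first 100 were also unusual in probe type: 80 had a probe set that matches several transcripts, against 28.5% of all genes. Without probe sets of those types, 5 of the 14 ribosomal and translation genes that still had a value were above the floor, and RPLP1 (5.6), PPIA (5.79) and TUBA1B (3.44) were not.

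Ribosomal protein mRNAs are known for a run of pyrimidines that starts with a C at their first base, through which their translation is controlled. The starts below are shown because the genes with the brightest probe sets were rich in this feature. Each is 30 bases of RefSeq sequence (build GRCh38.p14), 15 before the annotated start and 15 from it, with the pyrimidine run in capitals.
RPL41: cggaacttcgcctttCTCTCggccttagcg
RPLP1: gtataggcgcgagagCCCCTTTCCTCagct
RPS16: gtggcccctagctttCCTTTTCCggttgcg
EEF1A1: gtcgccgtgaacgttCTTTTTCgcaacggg
RPL39: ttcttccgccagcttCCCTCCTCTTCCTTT
RPS24: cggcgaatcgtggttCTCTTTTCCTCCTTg
PPIA: ggccaggctcgtgccgttttgcagacgcca
GAPDH: agcgggtgcatccctgtccggatgctgcgc
MIF: aaaaggcgggaccacagtggtgtccgagaa
RPS15: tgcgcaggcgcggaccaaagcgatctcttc
RPS29: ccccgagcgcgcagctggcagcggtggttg
They lie at chr12:56116618-56116647 (plus strand) for RPL41, chr15:69452803-69452832 (plus) for RPLP1 and chr19:39435935-39435964 (minus) for RPS16. EEF1A1 lies at chr6:73521018-73521047 (minus), RPL39 at chrX:119791616-119791645 (minus) and RPS24 at chr10:78033848-78033877 (plus). PPIA at chr7:44796666-44796695, GAPDH at chr12:6535249-6535278 and MIF at chr22:23894368-23894397, all on the plus strand, have no such run at their annotated start. Neither do the ribosomal protein genes RPS15, at chr19:1438381-1438410 (plus), and RPS29, at chr14:49598696-49598725 (minus), nor RPL32 at any of its 3 annotated starts.

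A run was counted where the first base was C and at least 4 pyrimidines followed, on the gene's own strand. It stood at 35 of 57 start windows of ribosomal protein genes (61.4%), against 951 of 21490 windows of all measured genes (4.43%). The share was 2.81% in the dimmest decile of genes and 7.08% in the brightest. Without ribosomal protein genes the brightest decile stood at 5.91%, and the other genes of the first 100 at 11 of 81 windows (13.6%). The base composition of the windows also moved with level: the median GC content was 50% in the dimmest decile and 64.3% in the brightest. The letters TATAAA, on either strand, were in 18.5% of windows of the dimmest decile and 7.61% of the brightest. These are descriptions across genes, which share arrays and base composition, and the choice of features was made after the levels were seen.

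A few genes of tissue character stood among the housekeeping genes. DLK1, an imprinted membrane protein of the Notch ligand family found in fetal adrenal and in adrenal progenitor cells, was 9th of 19775 at 14.16, 14.15 and 14.19. Its second probe set read 8.01 ± 0.15, also above the floor. MIF, a cytokine with wide expression, was 14th at 14.11 ± 0.01. Some further names were chosen after their values were seen. PCP4, a calmodulin-binding peptide, read 13.75, 13.79 and 13.73 (rank 37). TFRC, the transferrin receptor, read 13.33 ± 0.05, and the secreted matrix protein SPARC 13.23 ± 0.03. QPCT (13.21 ± 0.04) and PAM (13.07 ± 0.01), which modify the ends of peptide hormones, were both among the first 120 genes by rank, at 97 and 117. NPTX2, a secreted pentraxin of neurons, read 12.40 ± 0.06 and MUCL1, a small mucin-like gene, 12.54 ± 0.04. BEX3 (13.30 ± 0.02) and BEX1 (12.65 ± 0.04), X-linked genes of neural and endocrine cells, were in the first 300.

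Of the 6 genes that mark an adrenocortical cell, 4 were above the floor and 2 lay across it. AGTR1, the type 1 angiotensin II receptor, was the brightest of them at 11.92, 12.12 and 11.98 on the 3 arrays (rank 431), and its second probe set read 10.6 ± 0.17. STAR, which brings cholesterol into mitochondria, read 11.79, 11.88 and 11.85 (rank 519). CYP11A1, which cuts the side chain of cholesterol, read 11.18, 11.13 and 11.27 (rank 963). CYP17A1, the 17-hydroxylase that leads to cortisol and androgens, read 9.78, 9.92 and 9.90 (rank 2747), while its second probe set read 2.99 ± 0.03. NR5A1 (SF-1), the nuclear receptor that drives steroidogenic genes, read 6.67, 7.29 and 7.29, so replicate 1 was under the floor and the others above it. MC2R, the ACTH receptor, read 7.04, 7.05 and 6.69, with replicate 3 under the floor. Its other 2 probe sets read 3.66 and 4.39. AGTR1, STAR and CYP11A1 were in the brightest 10% of all genes. In the order of these 6 signals the values of NR5A1 and MC2R overlapped, and those of the other neighbouring pairs did not.

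Markers of other cell types of the adrenal were mostly at the floor. Of 21 genes of adrenal medulla and neuroendocrine cells, 3 were above it, the adhesion molecule NCAM1 (10.68 ± 0.01), CHGB (8.46 ± 0.02) of secretory granules and the growth cone protein GAP43 (7.80 ± 0.23). SYP, of synaptic vesicles, lay between at 7.03. The vesicular amine transporters SLC18A2 (3.81) and SLC18A1 (3.63) and the tubulin regulator STMN2 (3.84) were the dimmest. The catecholamine enzymes TH (3.92), DBH (5.78) and PNMT (6.21), picked out after the values were seen as the defining markers of medulla, were all at the floor. Of 20 genes of fibroblasts, endothelium and immune cells, 2 were above the floor, smooth muscle actin ACTA2 (8.63 ± 0.11) and the collagen COL1A1 (7.72 ± 0.10). Both other named collagens of that list, COL3A1 (5.14) and COL1A2 (4.91), were at the floor. The endothelial genes TEK and PECAM1 each read 5.96, and the leukocyte genes LYZ (3.64) and PTPRC (3.49) and the matrix proteoglycan LUM (3.23) were the dimmest.

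Of 30 steroidogenic genes measured, 18 were above the floor, 1 was between and 11 were at it, with a median percentile of 62.5 among all genes. The supply side was bright. FDX1, a ferredoxin and electron donor of the P450 enzymes in mitochondria, read 11.48, 11.80 and 11.64, and POR, the reductase that serves the microsomal ones, 10.79, 10.71 and 10.91. HSD3B2, the adrenal form of 3-beta-hydroxysteroid dehydrogenase, read 8.61 ± 0.04, and HSD3B1, the placental and peripheral form, was at the floor at 3.78 ± 0.05. The last steps of the corticosteroid pathways were both at the floor. CYP11B2, the aldosterone synthase, read 5.41, 5.82 and 5.86, and CYP11B1, the 11-beta-hydroxylase of cortisol synthesis, 4.37, 4.40 and 4.32. Their coding sequences are nearly identical, so signal could be shared between their probe sets. No value is given here for CYP21A2, which was not analysed here.

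The rest of the steroidogenic genes above the floor included enzymes that make and modify androgens. HSD17B4 (10.63 ± 0.07), HSD17B12 (9.97 ± 0.02) and HSD17B8 (7.87) are hydroxysteroid dehydrogenases with roles in fatty acid metabolism as well. AKR1C3, which reduces androstenedione to testosterone, read 10.12, 10.14 and 10.14. Its close relatives AKR1C1 (8.01) and AKR1C2 (7.71) were above the floor too, and AKR1C4, the liver form, was the dimmest gene of the list at 3.41. CYB5A, the cytochrome b5 that favours the lyase reaction of CYP17A1, read 9.68 ± 0.08. SRD5A1, the type 1 5-alpha-reductase, read 9.62 ± 0.03, and SRD5A2, its prostatic counterpart, 4.17. SULT2A1, which sulfates DHEA, read 9.46, 9.12 and 9.38, and PAPSS2, which supplies the sulfate donor, 9.0, 8.82 and 9.11. H6PD (7.80), which feeds NADPH to a dehydrogenase in the endoplasmic reticulum, and the steroid sulfatase STS (7.74) were the other 2 above the floor. At the floor were HSD17B1 (6.67), the aromatase CYP19A1 (5.63), the testicular HSD17B3 (5.19), the cortisol-cortisone enzymes HSD11B2 (4.56) and HSD11B1 (4.42), and the estrogen sulfotransferase SULT1E1 (3.73). TSPO, a mitochondrial outer membrane protein, lay between at 6.75, 6.91 and 6.85, and was above the floor set by the mean or the median of probe sets. The calls of HSD17B12 and STS rest on their brightest probe set, since their others read at most 4.05 and 6.29. AKR1C1, AKR1C2 and H6PD each had a second probe set above the floor, at 8.01, 7.61 and 7.61. For all of these genes the mean over their probe sets was not above the floor of that setting. The calls of CYB5A, AKR1C1 and AKR1C2 rest on probe sets that match several transcripts, without which they read 3.88, 4.89 and 3.82. Of the 29 pairs of neighbours in this order of signals, 11 overlapped in their values over the 3 arrays.

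**Figure D2:**
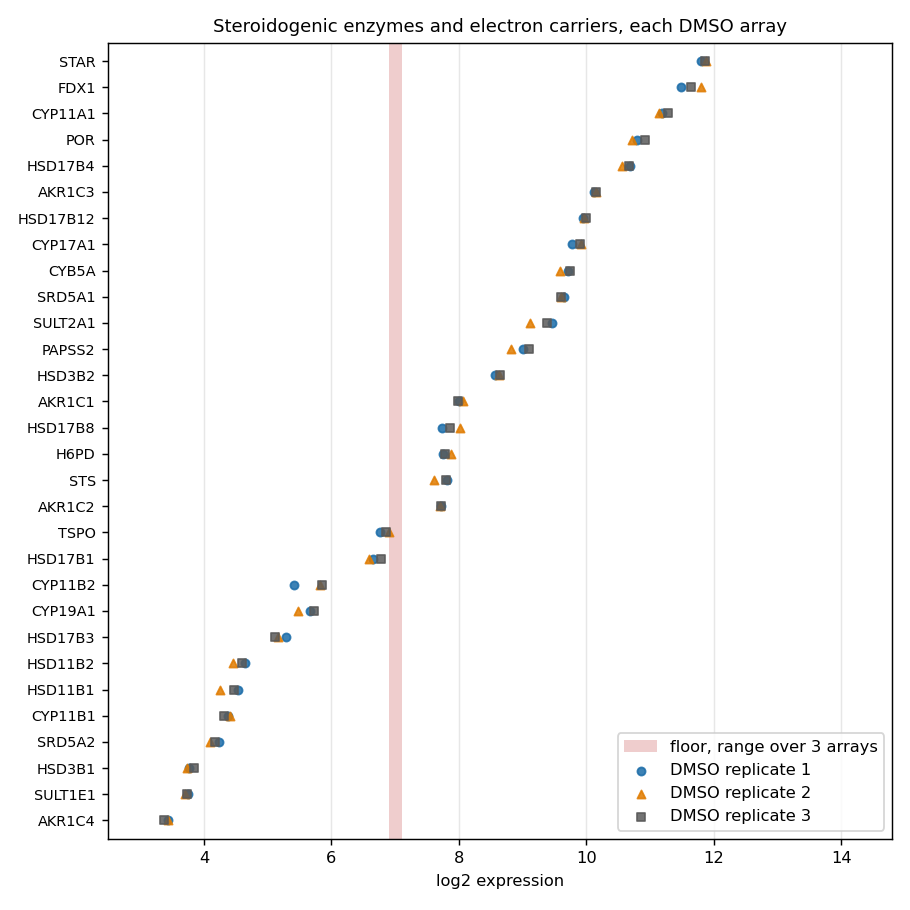
Log2 level of each steroidogenic gene on each of the 3 DMSO arrays (points), ordered by mean, with the floor of the arrays marked. STAR, FDX1 and CYP11A1 are at the bright end, and CYP11B2, CYP11B1 and HSD3B1 lie under the floor on every array.

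SF-1 and its relatives bind the letters AAGGTCA. The promoter windows, 250 bases before to 50 after each annotated RefSeq start, held this motif on either strand in 4 of the 22 steroidogenic genes with a window, against 4.18% of 15384 measured genes. These genes were CYP19A1, H6PD, HSD3B1 and STS, of which CYP19A1 and HSD3B1 were at the floor. The shorter motif AGGTCA, which lies within the longer one, was in 6 of 22 against 15% of all, and added CYP17A1 and FDX1. Counted by windows, AGGTCA was in 22.2% for steroidogenic genes, 24.4% for the other tissue genes that set the floor and 11.7% for all measured genes. For AAGGTCA these shares were 13.9%, 4.44% and 3.17%. The median GC content of the windows was 47.8%, 44.7% and 62.7% in the same order, and its part in these shares was not tested. Windows of a gene can overlap, so matches counted by windows are not all separate. The same HSD3B1 stretch was counted for different annotated starts, at 122 and at 129 bases before them. Of the 4 identity markers with a window, none held AAGGTCA. The stretches around the shorter motif are printed for the brightest 2 genes with it and for 2 genes of the longer one, with the motif or its complement in capitals.
CYP17A1: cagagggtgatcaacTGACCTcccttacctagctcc
FDX1: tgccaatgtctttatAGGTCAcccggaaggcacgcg
HSD3B1: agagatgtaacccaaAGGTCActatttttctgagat
STS: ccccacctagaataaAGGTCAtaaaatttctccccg
They lie at chr10:102837609-102837644 (minus strand), chr11:110429917-110429952 (plus), chr1:119507066-119507101 (plus) and chrX:7252085-7252120 (plus) in GRCh38.p14. The motif begins 216 bases before the start in CYP17A1, 16 in FDX1 and 144 in STS. A match is a run of letters and not a bound site, and these windows do not hold more distant elements.

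The glomerulosa list held both some of the brightest adrenal genes and a long dim tail. Of 23 genes measured, 13 were above the floor, 7 were in the brightest 10% and the median percentile was 77.8. KCNK3, the TASK-1 potassium channel that sets the resting voltage of glomerulosa cells, read 12.67, 12.37 and 12.57 (rank 243), and its other 2 probe sets 11.5 and 10.8. DAB2, an endocytic adaptor used as a marker of the outer zone, read 12.35, 12.41 and 12.41 (rank 287). The calcium sensor VSNL1 read 11.29, 11.40 and 11.34. Genes of WNT signalling, which is active in the outer zone, followed: WNT4 (10.57 ± 0.04), LEF1 (10.49 ± 0.03) and AXIN2 (10.15 ± 0.06). KCNJ5, the inward rectifier mutated in many aldosterone-producing adenomas, read 10.42, 10.30 and 10.47. BMP4 (10.02 ± 0.06), the matrix protein NPNT (9.69 ± 0.06), the L-type calcium channel CACNA1D (9.16 ± 0.04), CALN1 (9.09 ± 0.14) and the calcium pump ATP2B4 (8.70) completed the 12 beside AGTR1. At the floor, with CYP11B2 and HSD3B1, were the T-type channel CACNA1H (6.72 ± 0.07), LGR5 (6.67 ± 0.14), SHH (6.0 ± 0.02), the calcium pump ATP2B3 (5.09), KCNK9 (5.03), ANO4 (4.46), HOPX (3.67) and RSPO3 (3.55). By the mean or the median of probe sets CACNA1H read 6.6 and was above the floor of those settings.

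Of 8 fasciculata genes, 4 (50%) were above the floor, against 45.8% of all genes and 53.1% of protein-coding genes. SCARB1, the HDL receptor that supplies cholesterol esters, read 13.14, 13.05 and 13.16 (rank 104), and a second of its 5 probe sets 12.3. CCN3, a matricellular protein, read 12.56, 12.55 and 12.56. CYP17A1 and HSD3B2 were the others above, MC2R was between, and its accessory protein MRAP (6.18 ± 0.03), CYP11B1 and the aldo-keto reductase AKR1B10 (3.77) were at the floor. Of 11 reticularis and androgen genes, 8 were above the floor, with a median percentile of 80.4. ALDH1A1, an aldehyde dehydrogenase that makes retinoic acid, was the brightest at 10.97, 11.37 and 11.18, and the other 7 were steroidogenic genes given above. HSD17B3, SLC27A2 (4.42) and RARRES2 (4.41) were at the floor. No zone's list was thus above the floor as a whole, and the enzyme that defines each corticosteroid zone, CYP11B2 or CYP11B1, was at the floor. Genes are shared between these lists and the steroidogenic list, so their counts are not separate observations.

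**Figure D3:**
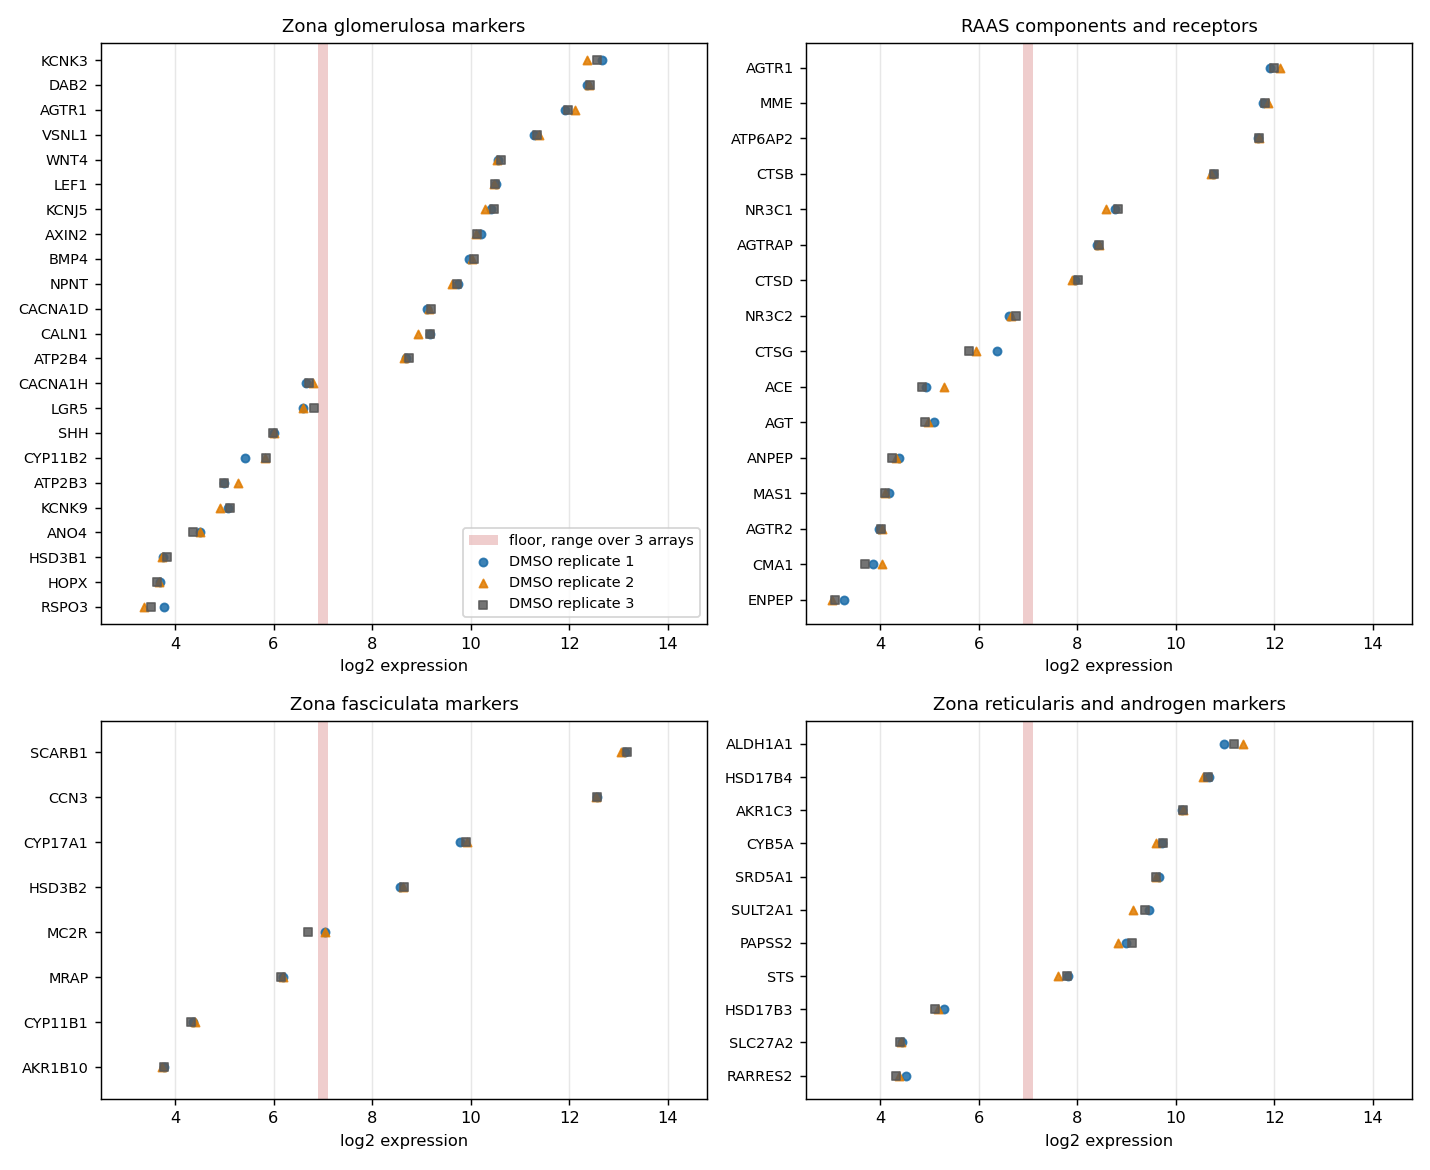
Log2 level on each DMSO array (points, 1 shape per array) of the glomerulosa, fasciculata, reticularis and RAAS genes, each list ordered by mean, with the range of the floor over the arrays as a shaded band. KCNK3, DAB2, AGTR1, SCARB1 and CCN3 lie near or above 12, and each list also has genes under the floor.

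Of 16 genes of the renin-angiotensin-aldosterone system, 7 (43.8%) were above the floor, against 45.8% of all genes and 53.1% of protein-coding genes. After AGTR1 came MME (11.77, 11.87 and 11.82), the neprilysin that degrades angiotensin peptides, and ATP6AP2 (11.67, 11.68 and 11.69), the prorenin receptor and proton pump subunit. The cathepsins CTSB (10.74 ± 0.03) and CTSD (7.95), the AGTR1-binding protein AGTRAP (8.43) and the glucocorticoid receptor NR3C1 (8.72 ± 0.12) were the others. Without probe sets that match several transcripts, NR3C1 read 3.23, and AGTR1, MME and ATP6AP2 had no value. The mineralocorticoid receptor NR3C2 read 6.62, 6.65 and 6.76, under the floor on each array. With genes taken by the mean or the median of their probe sets, which also changes the floor, it was called above at the same level of 6.68. Angiotensinogen AGT (4.99 ± 0.09), the converting enzyme ACE (5.03 ± 0.24), AGTR2 (4.01), MAS1 (4.12) and the peptidases CTSG (6.04), ANPEP (4.32), CMA1 (3.87) and ENPEP (3.12) were at the floor.

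Of 26 genes of the ACTH receptor and cyclic AMP machinery, 14 (53.8%) were above the floor. That share was 45.8% for all genes and 53.1% for protein-coding genes. Of the 14, 6 were in the brightest 10%, and the brightest lay downstream of the receptor. GNAS, which encodes the stimulatory G protein subunit, read 13.65, 13.57 and 13.63 (rank 48) and is also imprinted. Without probe sets that match several transcripts it read 7.05 and was not above the floor on all 3 arrays. PRKAR1A (12.65 ± 0.05), PRKAR2B (11.93 ± 0.03) and PRKAR2A (10.98) encode regulatory subunits of protein kinase A. The catalytic subunits PRKACB (10.29 ± 0.02) and PRKACA (9.06 ± 0.17) were above the floor as well. PDE2A, a phosphodiesterase stimulated by cyclic GMP, read 11.77, 11.71 and 11.86. CREM, a transcription factor of the CREB family, read 11.09 ± 0.07. Of the adenylyl cyclases, ADCY6 (9.06 ± 0.13), ADCY9 (8.43) and ADCY3 (8.14) were above the floor, and ADCY4, ADCY1, ADCY7, ADCY5, ADCY2 and ADCY8 lay at it, from 6.74 down to 3.95. By the median probe set ADCY9 (6.29) was not above the floor and ADCY4 was. PDE8A read 9.43, whereas PDE8B (5.19) and PDE11A (5.04), both linked to inherited adrenal hyperplasia, were at the floor. AKAP1 (9.51) and PRKAR1B (7.72) were above, and MRAP2 (3.95) at the floor.

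Receptors for other hormones and transmitters were mostly at the floor. Of 47 measured, 5 were above, 5 between and 37 at it, none was in the brightest 10%, and the median percentile was 32. The 5 were PTH2R (7.76, 7.63 and 7.85), a parathyroid hormone receptor, the endothelin receptor EDNRB (7.65, 7.68 and 7.71), the VIP receptor VIPR1 (7.82, 7.45 and 7.64), the serotonin receptor HTR4 (7.46, 7.50 and 7.32) and the natriuretic peptide receptor NPR1 (7.33, 7.21 and 7.35). All 5 lay within 1 log2 unit of the floor. The dimmest were HTR2B (3.18), the dopamine receptor DRD1 (3.04) and LHCGR (3.02), the receptor for luteinising hormone. Of 34 growth factor receptors, 16 (47.1%) were above the floor, a share close to the 45.8% of all genes and below the 53.1% of protein-coding genes. The brightest were TGFBR1 (11.40 ± 0.03), IGF1R (10.88 ± 0.08), TGFBR3 (10.63) and IGF2R (10.22), and the dimmest ERBB4 (4.15), BMPR1B (4.07) and the VEGF receptor KDR (3.76 ± 0.05).

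Of 39 nuclear receptors, 19 (48.7%) were above the floor, against 45.8% of all genes and 53.1% of protein-coding genes. RORB, an orphan receptor known from retina and brain, read 12.09, 12 and 12.02, and NR1D2, a repressor of the circadian clock, 11.85, 11.90 and 11.72. The immediate early receptor NR4A1 read 10.50 ± 0.05 and the estrogen-related receptor ESRRG 10.19 ± 0.01. NR5A2 (3.86), RXRG (3.83) and HNF4G (3.24) were the dimmest. Of 21 adrenal transcription regulators, 9 (42.9%) were above the floor, near the share of all genes and below that of protein-coding genes. They were NR4A1, HHEX (9.60 ± 0.19), NR4A3 (9.42 ± 0.07), DACH1 (9.41 ± 0.04), GATA6 (8.92 ± 0.16), CBX2, GLI3, CITED2 and PKNOX1. GATA4 (6.87 ± 0.17) lay between, and the gonadal regulators SOX9 (3.76), DMRT1 (3.70) and FOXL2 (3.56) were the dimmest.

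Potassium channels were mostly at the floor, with 9 of 52 above it. After KCNK3 came KCNK1 (10.99, 10.86 and 10.95), a related 2-pore channel, then KCNJ5 and KCNMA1 (9.32 ± 0.10), the large-conductance calcium-activated channel. KCNK6 (3.52), KCNT2 (3.27) and KCNQ5 (3.26) were the dimmest. In this list 36 of 51 neighbouring pairs overlapped, so most of the order below the first few channels is within the spread of the arrays. Of 38 genes of calcium channels and stores, 19 (50%) were above the floor, against 45.8% of all genes and 53.1% of protein-coding genes. The reticulum calcium pump ATP2A2 (11.64 ± 0.05), the inositol trisphosphate receptor ITPR2 (11.24 ± 0.09), the channel subunit CACNA2D1 (11.17 ± 0.05) and the plasma membrane pump ATP2B1 (9.87) led. CACNA1E (4.43), CACNA2D3 (4.21) and TRPC6 (3.95) were the dimmest.

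**Figure D4:**
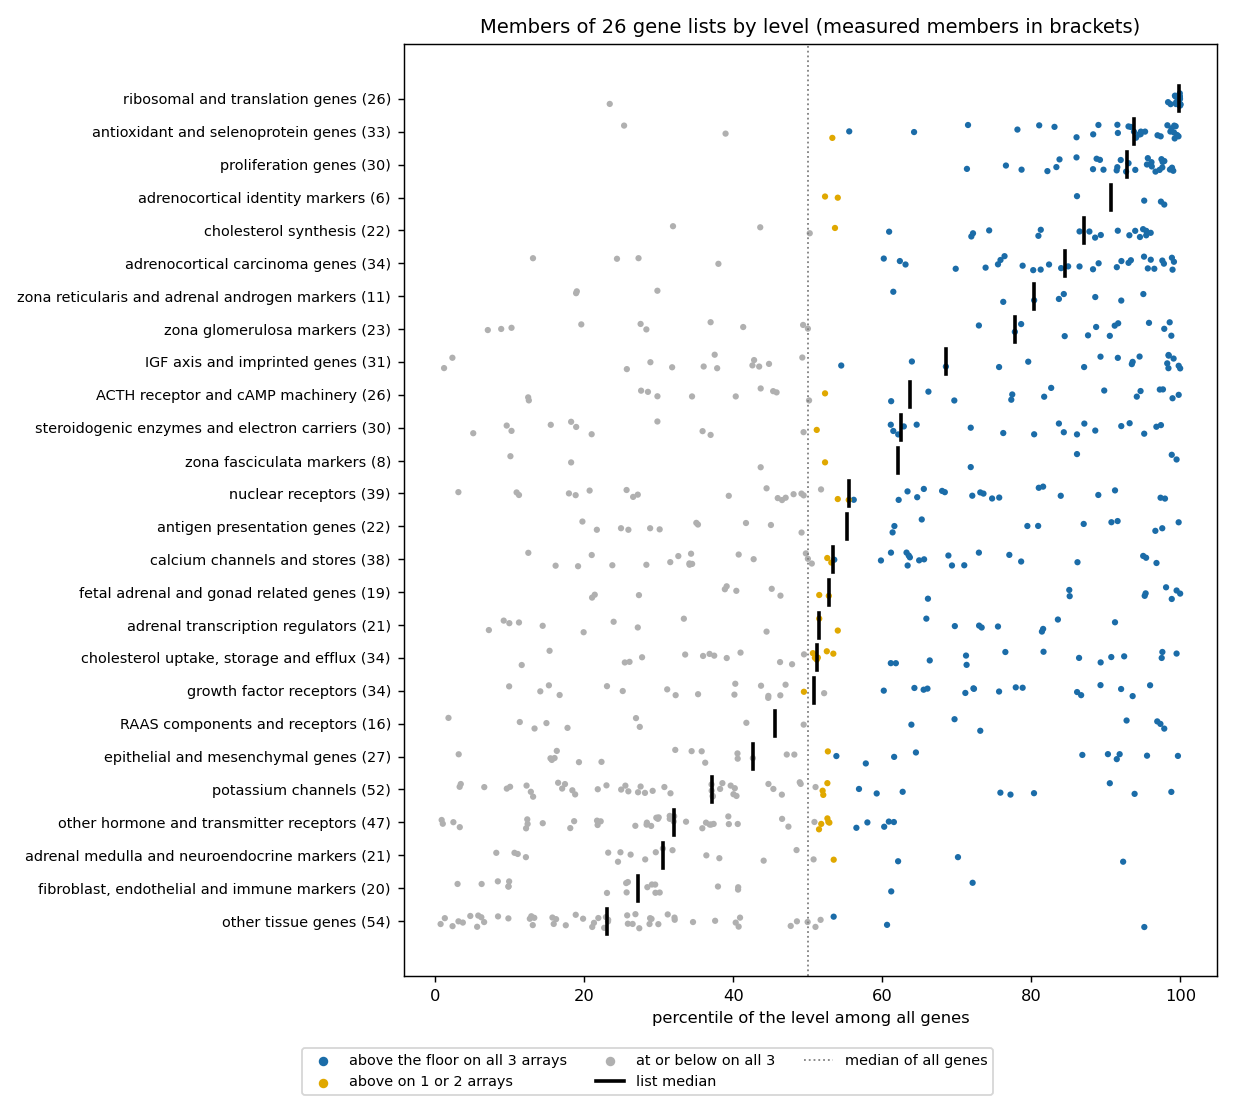
Percentile of each measured member's level among all genes (x axis), for the 26 gene lists in order of their median, shown as a black bar; colours give members above the floor on all 3 arrays, on some or on none. Ribosomal, antioxidant and proliferation genes crowd at the right edge, and hormone receptors, medulla markers and other tissue genes lie mostly left of the dotted median of all genes.

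Genes of cholesterol synthesis were bright as a group: 18 of 22 were above the floor, 8 were in the brightest 10%, and the median percentile was 87.1. FDPS (11.42 ± 0.04), IDI1 (11.24), INSIG1 (11.24) and HMGCS1 (11.17 ± 0.06) led, and SREBF1 (6.74), TM7SF2 (6.17) and IDI2 (5.33) were dimmest. The letters CCAAT, on either strand, were in the start windows of 15 of its 20 genes with a window, against 41.7% of all. This search was chosen after the values were seen. Counted by windows, CCAAT was in 65.4% for this list and 34.5% for all measured genes. It was not particular to cholesterol synthesis: the share was 89.3% for proliferation genes, 60.9% for antigen presentation genes and 48.9% for the other tissue genes. Uptake, storage and efflux were less evenly bright, with 14 of 34 above the floor. SOAT1, which esterifies cholesterol, read 11.95, 11.97 and 11.79, and SCARB1, the acyl-CoA binding DBI (11.86) and the lysosomal NPC2 (10.69) were the other leading genes. The lipid droplet gene PLIN2 (4.90 ± 0.13) and FABP4 (4.15) were among the dimmest. CETP, the plasma lipid transfer protein that CP-529414 inhibits, was the dimmest of the list at 3.85, 3.75 and 4.06, about 3 log2 units under the floor.

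Genes of the cell cycle were bright, and no other tissue or culture was measured to compare them with. All 30 proliferation genes were above the floor and 19 were in the brightest 10%. TYMS (12.71 ± 0.01), RRM2 (12.59 ± 0.06), PCNA (12.40 ± 0.04) and CDK1 (12.01) were brightest, and E2F1 (9.17), PLK1 (9.0) and AURKB (8.56 ± 0.11) dimmest. Of 34 genes altered or studied in adrenocortical carcinoma, 30 were above the floor. RPL22 (12.80), PRKAR1A, the beta-catenin gene CTNNB1 (12.56, 12.64 and 12.52) and CDK4 (11.99) led. The RPL22 probe set is of a type that matches several transcripts. CDKN2B (5.01), CCND1 (4.82 ± 0.11) and NF1 (3.99 ± 0.04) were dimmest, and TERT (5.77 ± 0.20) was the fourth gene at the floor. NF1 had a single probe set among those with a single gene symbol.

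Imprinted genes and the IGF axis were split. Of 31 measured, 18 were above the floor and 11 in the brightest 10%. After DLK1 and GNAS came PEG10 (12.83, 12.66 and 12.76), a domesticated retrotransposon gene, and PLAGL1 (12.32 ± 0.04), a zinc finger gene. IGF2BP2 (4.92), SNRPN (3.17) and IGFBP1 (3.06) were the dimmest. No value is given for IGF2, which was not analysed here. Of 19 genes of fetal adrenal or gonad, 9 (47.4%) were above the floor, against 45.8% of all genes and 53.1% of protein-coding genes. DLK1, the cancer-testis antigen MAGEA6 (13.13, 13.17 and 13.07), CCN3 and TMSB4X (12.12) led, and INHBB (5.02), LHX9 (4.6) and CYP26A1 (4.57) were dimmest. The MAGEA6 probe set is of a type that matches near-identical genes, so this value cannot be assigned to a single member of the MAGEA family.

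Genes of cell shape fell on both sides. Of 27 epithelial and mesenchymal genes, 10 were above the floor. The intermediate filament VIM (13.40 ± 0.05), the junction protein TJP1 (11.29), N-cadherin CDH2 (10.60 ± 0.02) and the transcription factor TWIST1 (10.54 ± 0.14) led, while E-cadherin CDH1 (4.18 ± 0.14), MSLN (4.16) and KRT20 (3.25) were dimmest. Of 22 antigen presentation genes, 11 (50%) were above, against 45.8% of all genes and 53.1% of protein-coding genes. B2M (13.68, 13.58 and 13.56), HLA-C (11.89 ± 0.02), HLA-B (11.60) and HLA-G (10.55) led, and HLA-DRB1 (4.86), HLA-DMA (4.62) and HLA-DRA (4.47 ± 0.20), of class II, were dimmest. Antioxidant and selenoprotein genes were nearly all above, 30 of 33, with 21 in the brightest 10% and a median percentile of 93.8. PRDX2 (13.57 ± 0.07), PRDX6 (13.23), the metallothionein MT2A (13.01 ± 0.10) and SOD1 (12.89) led, and GPX3 (7.02), GSTP1 (5.84 ± 0.02) and GPX2 (4.89 ± 0.02) were dimmest. The probe sets of MT2A and PRDX6 are of types that match several transcripts.

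The 3 arrays repeated each other closely. Over all genes the median SD was 0.0877, and over those above the floor 0.0740. By deciles of level it was 0.080 for the dimmest genes, 0.115 in the sixth and 0.0468 for the brightest. Across genes, which are not independent replicates, arrays correlated with r = 0.99768, 0.99825 and 0.99712. Above the floor, 14 genes had an SD over 0.5. GNL3L, a nucleolar GTPase, read 7.45, 9.20 and 7.45. Of its other 3 probe sets, the next brightest read 5.56, 6.81 and 5.76, another 5.66 ± 0.16 with replicate 2 highest, and the last 3.87, 4.18 and 4.32, highest on replicate 3. HIRA, a histone chaperone, read 9.48, 10.4 and 8.42. GINS4, of the replication helicase, read 7.61, 8.94 and 7.73, and HINT3 7.88, 9.44 and 8.04. COX1, of mitochondrial DNA, read 13.0, 14.1 and 12.9. ATP1B2, a sodium pump subunit, read 8.09, 7.01 and 8.01, the single one of the 10 most variable genes with replicate 2 lowest. LOC100190986 (7.03, 8.73 and 7.19), GTF2I (6.99, 8.76 and 7.55), GATC (8.01, 9.14 and 8.25) and SLC71A3P (7.89, 9.07 and 8.48) were the others.

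Replicate 2 was the array farthest from the others in 85 of the 100 most variable genes above the floor, against 3994 of all 9049 (44.1%). In 23 of those 100 genes it was both the farthest and the highest array. Some control probe sets also differed between the 3 arrays, though not all of them set replicate 2 apart. The signal of 5′ minus 3′ control probe sets, a sign of RNA integrity averaged over ACTB and GAPDH, was -0.719, -0.276 and -0.504 on the 3 arrays. The 3′ end control of ribosomal RNA read 10.3, 8.54 and 11.2, its middle control 9.12, 7.96 and 8.89, and its 5′ end control 10.06, 10.16 and 10.10. The 45S precursor gene RNA45SN5 read 9.43, 8.84 and 9.78. The part of these differences in the spread of single genes was not tested. Without replicate 2 the count of genes above the floor was 9147. A gene then has to exceed the floor on fewer arrays, which by itself tends to raise the count.

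**Figure D5:**
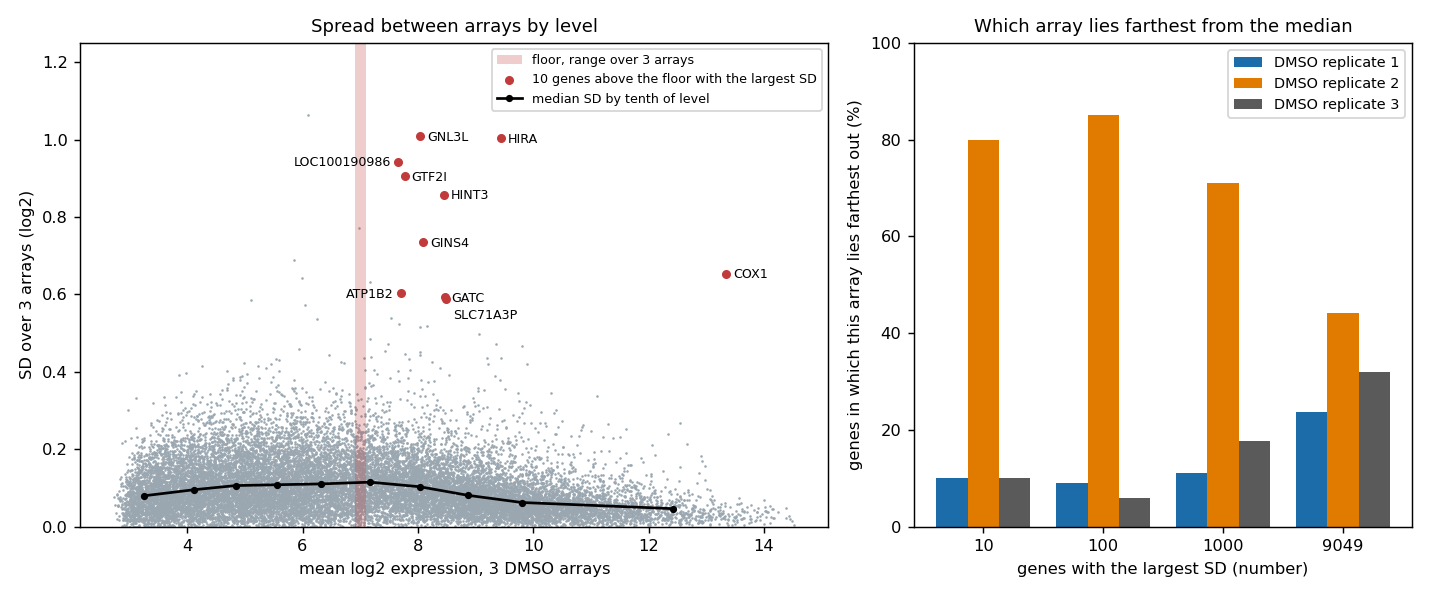
Left, SD over the 3 DMSO arrays against mean log2 level, 1 point per gene, with the 10 most variable genes above the floor in red and a line for the median SD by decile of level; right, the percent of genes in which each array lies farthest from the median of the 3, for the most variable 10, 100 and 1000 genes and for all 9049 above the floor. Most genes lie under 0.2, and replicate 2 is the farthest array in 85 of the 100 most variable.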

How the data were processed

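The 9 arrays of the series hold 54675 probe sets each. The authors deposited log2 values, and the submitters' processing notes name RMA (robust multi-array average) as the method. Which program and probe set definition were used, and which arrays were normalised together, is not given in the sources used here. Total RNA was purified on 96-well columns and labelled with biotin, per the labels' protocols.

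Only the 3 DMSO columns were read. Of the probe sets, 62 were controls, 41092 carried 1 gene symbol in the platform annotation, 1800 several and 11721 none, and those with several or none were left out. Of 19775 genes, 10523 had more than 1 probe set. Taking the brightest favours such genes: the median percentile was 34.1 for genes with 1 probe set and 69.9 for those with 4 or more. No further normalisation, pseudocount or test was applied, and lists are described by counts and median percentile. Replicates were numbered in accession order.

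The 26 gene lists name 752 genes, of which 666 were measured, and the other 86 were not analysed here. The members and lists were chosen with earlier results of these data known. The text names the 6 markers, the 30 brightest genes, the members of the steroidogenic, ACTH receptor, zone and RAAS lists, the 4 brightest and 3 dimmest measured members of each other list, the 10 most variable genes above the floor, and CETP. Further names were chosen after their values were seen, as the text says at most of them. XIST and Y-linked genes were left out.

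Promoter windows are RefSeq's for GRCh38.p14, and a gene can have several. Computation used Python 3.11.15 with numpy 2.4.6, pandas 2.3.3, scipy 1.17.1 and matplotlib 3.10.9. The code for the ranking and floor was run on simulated data. There the brightest probe set of a gene always carried its true level, so the run checks the code and not the ranks or floor of these arrays. Alternatives were other floors, other choices of probe set, arrays centred or quantile normalised again, each array left out, and shorter and longer motifs.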

Additional observations from a re-analysis of the deposited data

How the results depend on the processing

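The count of genes above the floor, 9049 as reported, was 9048 with arrays quantile normalised again, 9049 centred, 9323 by the mean level, 8423 by the mean of probe sets, 8415 by the median probe set, 6690 of 17098 without probe sets of the shared types (_x_at and _s_at), 12896 with the floor at the 75th percentile and 12879 with the lower 1 in 3 of all genes as the floor. Leaving out each array in turn gave 9071 to 9246, where a gene had to exceed the floor on fewer arrays, which by itself tends to raise the count. Counts within lists moved past 1.5 times in 29 of 275 settings. With the floor at the 75th percentile, hormone receptors above it rose to 21, growth factor receptors to 26, nuclear receptors to 30, potassium channels to 28, cholesterol uptake to 27, fetal and gonad genes to 16, medulla to 9, fibroblast, endothelial and immune genes to 5 and epithelial and mesenchymal genes to 18. At that lower percentile of all genes they were 20, 26, 30, 28, 28, 15, 9, 5 and 19 in that order. The fibroblast, endothelial and immune count was 0 by the mean and by the median of probe sets. Without the shared probe types it was 1, reticularis genes 5 of 9, RAAS genes 3 of 13, hormone receptors 3 of 42, cholesterol uptake 9 of 24, carcinoma genes 17 of 24, epithelial and mesenchymal genes 6 of 18, antigen presentation 4 of 15 and ribosomal and translation genes 5 of 14; fewer genes have a probe set left there. The median SD was 0.0618 to 0.0814 with an array left out. NR5A1 was above the floor without replicate 1 (7.29) and MC2R without replicate 3 (7.05), in each case without the array on which it had been under the floor. AKR1C1, HSD17B12, H6PD, STS and AKR1C2 were not above it by the mean of probe sets, nor CYB5A (3.88), NR3C1 (3.23) and GNAS (7.05) without the shared types, where AGTR1 has no value. By the mean and the median of probe sets, with their own floors, NR5A1, TSPO, NR3C2, CACNA1H and ADCY4 were above, and ADCY9 (6.29) was not by the median. The longer motif CAAGGTCA was in 1 of 22 steroidogenic genes. No paired analysis was possible because a single group is described, with no test and replicate numbers given in accession order.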
